A study of Mus musculus with 7 samples.

Results

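The interferon-stimulated genes examined here were a named list of 39 mouse genes that encode transcription factors, RNA sensors, antiviral effectors, GTPases, antigen processing proteins and PARP-family proteins of the interferon response. Members were taken by gene symbol from probe sets that carry exactly 1 symbol, with the brightest such probe set standing for the gene. Of the 39 genes 37 had such a probe set, and all 37 reached the intensity filter of 82 in 2 or more arrays, among 10874 genes tested of 18193 with a probe set. Isg15, which encodes a ubiquitin-like modifier, was represented only by a probe set with several symbols, and no probe set was named to Ifi44, so neither has a value. The lowest reading of any tested member in any array was 98.8, so the filter removed none.

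RNA of sorted mouse thymocytes was hybridised to Affymetrix arrays in 3 groups, all of C57BL/6J background and 4 to 6 weeks of age, each sample coming from pooled mice. Stage 1 NKT cells (n = 2) came from mice with a transgenic Valpha14 T cell receptor chain and were sorted as binding the CD1d tetramer, low in CD24 and negative for CD44 and NK1.1. Luxoid NKT cells (n = 3) were sorted in the same way from Valpha14 transgenic mice that carry the Luxoid mutation and are labelled deficient in PLZF, the transcription factor encoded by Zbtb16. CD4SP thymocytes (n = 2), the conventional CD4 single-positive cells, came from mice labelled wild-type. Both NKT groups thus share the transgene, and in a difference from CD4SP lineage and genotype cannot be told apart. The cell type label of the CD4SP samples repeats the NKT sort, whereas their titles, sources and descriptions name CD4SP. The latter were followed, and Zbtb16 read 2751 and 3488 in stage 1 NKT, 1857, 2774 and 2645 in Luxoid NKT, and 87.3 and 61.8 in CD4SP. A transcript level is no check on the loss of PLZF protein.

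Interferons bind cell surface receptors whose JAK kinases phosphorylate STAT proteins. Type I interferon drives a complex that holds STAT2 and IRF9 to the interferon-stimulated response element (ISRE), while interferon gamma acts through gamma-activated sites (GAS). In the thymus, interferon made by thymic epithelium and dendritic cells keeps a low level of these genes switched on in maturing T cells, and their transcripts are part of late single-positive maturation.

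The promoter windows of members on which the results turn are shown because they carry, or lack, the letters of the ISRE. They span 250 bases before to 50 bases after the RefSeq start site in GRCm38.p6, are written 5′ to 3′ on the strand of the gene, and carry in capitals every match to the ISRE letters on either strand, namely GAAA, any 2 bases and again GAAA. Oas1a (chr5:120907476-120907775, minus strand) and Oas3 (chr5:120777610-120777909, minus strand) were higher in both NKT groups than in CD4SP, Igtp (chr11:58199306-58199605, plus strand) was lower in both, Ifit1 (chr19:34640639-34640938, plus strand) was lower in Luxoid NKT than in CD4SP, and Oasl2 (chr5:114896684-114896983, plus strand) was lower in Luxoid NKT than in either other group.
Oas1a promoter: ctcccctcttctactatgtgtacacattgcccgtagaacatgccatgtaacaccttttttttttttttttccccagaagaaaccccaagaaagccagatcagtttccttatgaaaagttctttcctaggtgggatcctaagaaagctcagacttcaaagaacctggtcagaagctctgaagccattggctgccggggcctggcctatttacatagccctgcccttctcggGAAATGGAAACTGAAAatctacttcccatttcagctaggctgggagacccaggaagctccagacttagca
Oas3 promoter: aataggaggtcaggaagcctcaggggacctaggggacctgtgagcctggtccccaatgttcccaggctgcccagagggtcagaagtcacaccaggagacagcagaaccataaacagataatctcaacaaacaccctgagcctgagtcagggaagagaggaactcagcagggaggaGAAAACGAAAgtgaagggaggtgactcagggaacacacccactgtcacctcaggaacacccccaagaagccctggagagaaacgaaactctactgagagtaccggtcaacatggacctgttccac
Igtp promoter: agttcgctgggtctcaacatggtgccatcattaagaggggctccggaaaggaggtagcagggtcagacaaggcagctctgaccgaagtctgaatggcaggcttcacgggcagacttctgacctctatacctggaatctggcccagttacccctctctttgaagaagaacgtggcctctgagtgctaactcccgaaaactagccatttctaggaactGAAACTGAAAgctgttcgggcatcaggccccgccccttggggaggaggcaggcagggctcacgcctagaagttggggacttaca
Ifit1 promoter: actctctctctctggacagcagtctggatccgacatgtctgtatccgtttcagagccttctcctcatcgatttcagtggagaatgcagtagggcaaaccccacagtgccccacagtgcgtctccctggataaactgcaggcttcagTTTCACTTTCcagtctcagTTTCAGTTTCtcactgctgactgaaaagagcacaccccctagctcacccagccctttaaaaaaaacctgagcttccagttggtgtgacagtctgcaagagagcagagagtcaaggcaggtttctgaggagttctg
Oasl2 promoter: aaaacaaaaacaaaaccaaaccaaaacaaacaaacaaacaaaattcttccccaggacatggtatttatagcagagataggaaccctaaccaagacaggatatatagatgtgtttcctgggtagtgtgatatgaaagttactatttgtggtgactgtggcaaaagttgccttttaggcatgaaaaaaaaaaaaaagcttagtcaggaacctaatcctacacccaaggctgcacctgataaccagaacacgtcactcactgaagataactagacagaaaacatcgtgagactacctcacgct

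Oas1a held 2 overlapping matches between 20 and 5 bases before its start, Oas3 held 1 match between 75 and 66 bases before, Igtp held 1 between 34 and 25 bases before, and Ifit1 held 2, read on the other strand, between 104 and 76 bases before. No match lay in the Oasl2 window, which says only that these letters are not there. Windows were found for 32 of the 39 members, and 14 of these members (43.8%) held the ISRE letters, against 3.99% of 27025 genes. The GAS letters TTCNNNGAA, searched on both strands, lay in the windows of 11 members (34.4%), against 9.55% of genes. The ISRE and GAS matches overlapped in Bst2 alone. Dhx58, Zbp1, Usp18, Mx1, Parp9, Parp14 and Rtp4 had no window in the table. Among members that passed a test of expression, Oas1a, Oas3, Gbp3, Igtp and Ifit1 held an ISRE match, while Irf3, Irf9, Oasl2 and Xaf1 held none, so matches lay in genes that were higher and in genes that were lower.

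The array medians were 79.6 to 83.7 in intensity, and the number of arrays limited the precision. Y-linked Kdm5d read 6.49 to 11.7 in the arrays numbered 1 of each group and 758 to 2331 in the others, so each group mixed pools of differing sex. Xist, the transcript of the inactive X chromosome, read 36.1 in Luxoid array 2, 29.0 in array 2 of CD4SP and at least 3888 in the rest, so both transcripts were present in array 2 of stage 1 NKT and array 3 of Luxoid NKT. The part of sex in the results was examined directly only by a Y-linked covariate. Another alternative used the replicate number as a block, and number 1 coincided with low Kdm5d. Luxoid array 3 stood apart for the members: it was the lowest of the 7 arrays for 27 of 37 members (73%), against 16% of all genes tested, and the lowest of the 3 Luxoid arrays for 30 (81.1%), against 33.8%. The median member deviated from its mean over the 7 arrays by -0.32 on the log2 scale in Luxoid array 3, -0.13 in Luxoid array 2, -0.0009 in Luxoid array 1, 0.05 and 0.04 in stage 1 NKT, and 0.25 and 0.16 in CD4SP. Counts that compare Luxoid NKT over all members are therefore also given without Luxoid array 3.

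Markers of other cells were read in the same arrays, and in bulk samples fewer cells of a type and less RNA per cell cannot be told apart. Of 8 plasmacytoid dendritic cell markers 7 were tested, and their summed intensity was 5024 to 5321 in stage 1 NKT, 4607 to 5472 in Luxoid NKT and 2505 to 2784 in CD4SP. Of these, Ccr9, a homing receptor that thymocytes also express, was higher in both NKT groups and Tcf4, a transcription factor, was higher in Luxoid NKT than in CD4SP, whereas Siglech, which defines the cell, read 89.5 to 180 with no difference past the threshold, and Bst2 is itself a member here. Of 9 myeloid markers Itgax, Itgam, Lyz2, Csf1r and Adgre1 were under the filter in every array. Their list summed to 1651 to 1894 in stage 1 NKT, 1282 to 1662 in Luxoid NKT and 1517 to 1613 in CD4SP, and the class II genes Cd74 and H2-Aa were lower in both NKT groups than in CD4SP. Of the 4 regulatory T cell markers, which summed to 1230 to 1646 in stage 1 NKT, 1147 to 1919 in Luxoid NKT and 1413 to 1616 in CD4SP, Foxp3 read 148 to 193 in the NKT arrays and 449 and 465 in CD4SP, and Ctla4 read at most 67.5 in the NKT arrays and 464 and 326 in CD4SP. Il2ra was also lower in Luxoid NKT than in CD4SP, while Ikzf2 went the other way, at 902 to 1596 in the NKT arrays and 540 and 453 in CD4SP. The mature single-positive list summed to 18590 to 19770, 17210 to 18490 and 17860 to 19930 in the same order of groups. Of its 6 tested markers Ccr7 was lower in both NKT groups than in CD4SP, S1pr1 was lower in stage 1 NKT and Itgae was higher in both. The immature double-positive list, of which 3 of 8 markers were tested, summed to 316 to 325, 418 to 574 and 927 to 1075. Dntt, the terminal transferase of receptor gene rearrangement, read 46.4 to 120 in the NKT arrays and 461 and 527 in CD4SP, Cd8b1 read 43.8 to 123 and then 223 and 268, and both were lower in both NKT groups. Cd8a was lower in stage 1 NKT than in CD4SP, and Rag1, Rag2, Ptcra and Arpp21 were under the filter in every array. Between Luxoid and stage 1 NKT, Cd8a was higher by 0.86 and Fcer1g by 1.98 on the log2 scale. Cd8a is 1 of 4 CD8 lineage markers, which summed to 1272 to 1312 in stage 1 NKT, 1522 to 1875 in Luxoid NKT and 1025 to 1052 in CD4SP. Fcer1g is 1 of 5 NK cell markers read, 3 of which were under the filter in every array, and these summed to 356 to 452, 1056 to 1162 and 354 to 516 in that order of groups. The part of these cells in the results was not tested.

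Over the 7 arrays the mean levels ran from Luxoid NKT, the lowest, through stage 1 NKT to CD4SP, the highest, for 21 members (56.8%), against 18.2% of all genes tested. Without Luxoid array 3 this order was that of 13 members (35.1%), against 17.6%, and 12 members (32.4%), against 18.4%, had stage 1 NKT lowest and CD4SP highest. That array was left out because it was low, being the lowest Luxoid array for 30 members. Its removal thus raised their Luxoid mean by construction, and the order was not counted without another Luxoid array. With all arrays, stage 1 NKT was the highest group for 10 others, of which Oas1a, Gbp3, Mx1 and Psmb8 had CD4SP lowest and Isg20, Oasl2, Bst2, Samhd1, Eif2ak2 and Gbp2 had Luxoid NKT lowest. Stage 1 NKT was the lowest for Ifit3, Sp100, Ifi35, Dhx58 and Trim25, with CD4SP highest, and Oas3 alone was highest in Luxoid NKT.

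**Figure D1:**
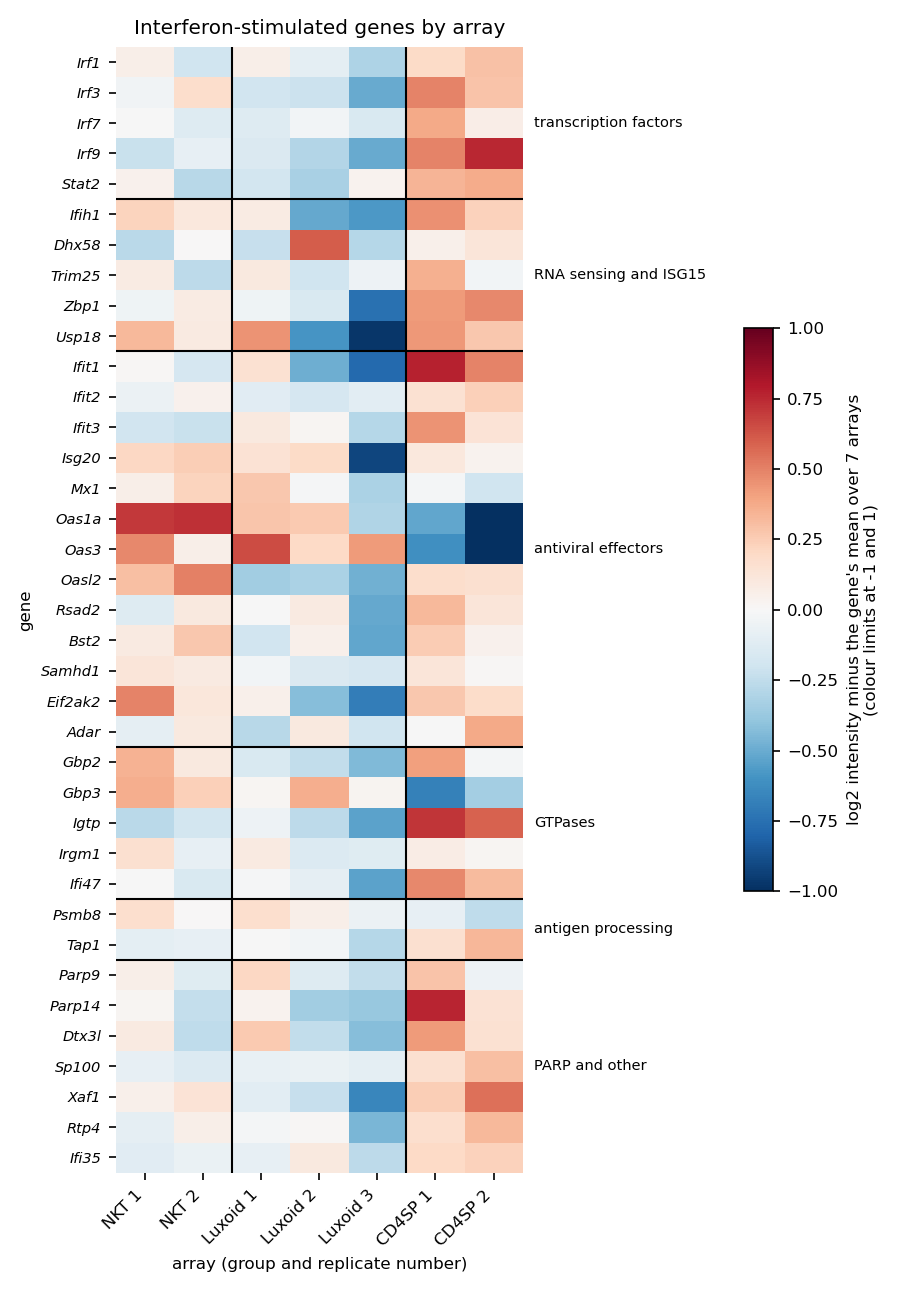
Log2 intensity of each of the 37 interferon-stimulated genes in each of the 7 arrays, shown as the deviation from that gene's mean over the 7 arrays (colour, log2 units, limits at -1 and 1); rows are grouped by role and columns by group. The Luxoid array 3 column is mostly blue, being lowest of 7 for 27 genes, and Oas1a and Oas3 are the rows in which CD4SP is darkest blue.

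Differences between groups are given as log2 differences ± SE from limma, with p-values adjusted over all 10874 genes tested, and a gene passed at an adjusted p under 0.05. The 3 comparisons share arrays, so their values for the members are set side by side and not combined.

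Luxoid NKT were set against stage 1 NKT to see what changes when PLZF is missing, and among the members Oasl2 alone passed, lower in Luxoid NKT. That is 1 of 37 members (2.7%), where 1.55% of all genes passed (0.653% lower, 0.901% higher). The median member differed by -0.13 on the log2 scale against -0.03 for all genes, over a range of -0.78 to 0.16. The difference was below 0 for 31 members (83.8%), where 56% of all genes were below 0. The arrays of the groups did not overlap and were lower in Luxoid NKT for 12 members (32.4%), against 16.6% of all genes: Zbp1, Samhd1, Xaf1, Eif2ak2, Isg20, Irf3, Ifit2, Oas1a, Gbp2, Oasl2, Bst2 and Ifih1. They were higher for none, against 10.1% of all genes. Without Luxoid array 3, 22 members were below 0 (55% of all genes), 12 did not overlap and were lower (21.1%), 3 were higher (14%), and the median became -0.06. Oasl2 then no longer passed (adjusted p = 0.0946).

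The comparison of stage 1 NKT with CD4SP set innate-like cells of transgenic mice against conventional cells of wild-type mice, so lineage and genotype differ together. Of 37 members 5 passed (13.5%), where 14.9% of all genes did. Oas1a, Oas3 and Gbp3 were higher in stage 1 NKT (8.11%, against 10.8% of all genes higher), and Igtp and Irf9 were lower (5.41%, against 4.08%). The median member stood at -0.24, against 0.06 for all genes, and 26 members (70.3%) were below 0, against 43.8%. The arrays did not overlap and were lower in stage 1 NKT for 21 members (56.8%), against 23.6%, and higher for 7 (18.9%), against 36.6%. The number that passed fell to 1 (2.7%, against 5.88% of all genes) without stage 1 NKT array 1, to 2 without stage 1 NKT array 2 (5.41%, against 6.85%) or CD4SP array 2 (5.41%, against 6.43%), and to 3 without CD4SP array 1 (8.11%, against 7.75%).

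In the comparison of Luxoid NKT with CD4SP 10 of 37 members passed (27%), where 16.8% of all genes did. Oas1a, Oas3 and Gbp3 were higher (8.11%, against 11.3%), and Zbp1, Ifit1, Xaf1, Igtp, Irf3, Oasl2 and Irf9 were lower (18.9%, against 5.51%). The median member stood at -0.36, against 0.02 for all genes, with 32 members (86.5%) below 0, against 47.6%. The arrays did not overlap and were lower in Luxoid NKT for 23 members (62.2%), against 20.6%, and higher for 4 (10.8%), against 25.4%. Without Luxoid array 3, 30 members were below 0 (46.7% of all genes), 23 did not overlap and were lower (24%), and 6 were higher (30.4%). The median was then -0.28, and 5 members passed (13.5%), where 12.7% of all genes did, 3 of them lower (against 3.68%) and 2 higher (against 8.98%). Without Luxoid array 1, 13 members passed (35.1%, against 14.6%), 11 lower (against 4.98%) and 2 higher (against 9.59%). Without Luxoid array 2, 7 members passed (18.9%, against 16.1%), 6 lower (against 5.08%) and 1 higher (against 11%). Leaving out a stage 1 NKT or CD4SP array leaves 1 array in that group, and fewer members passed. The members' share then lay near or under that of all genes in total. By share, more of the members than of all genes were lower and fewer were higher.

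**Figure D2:**
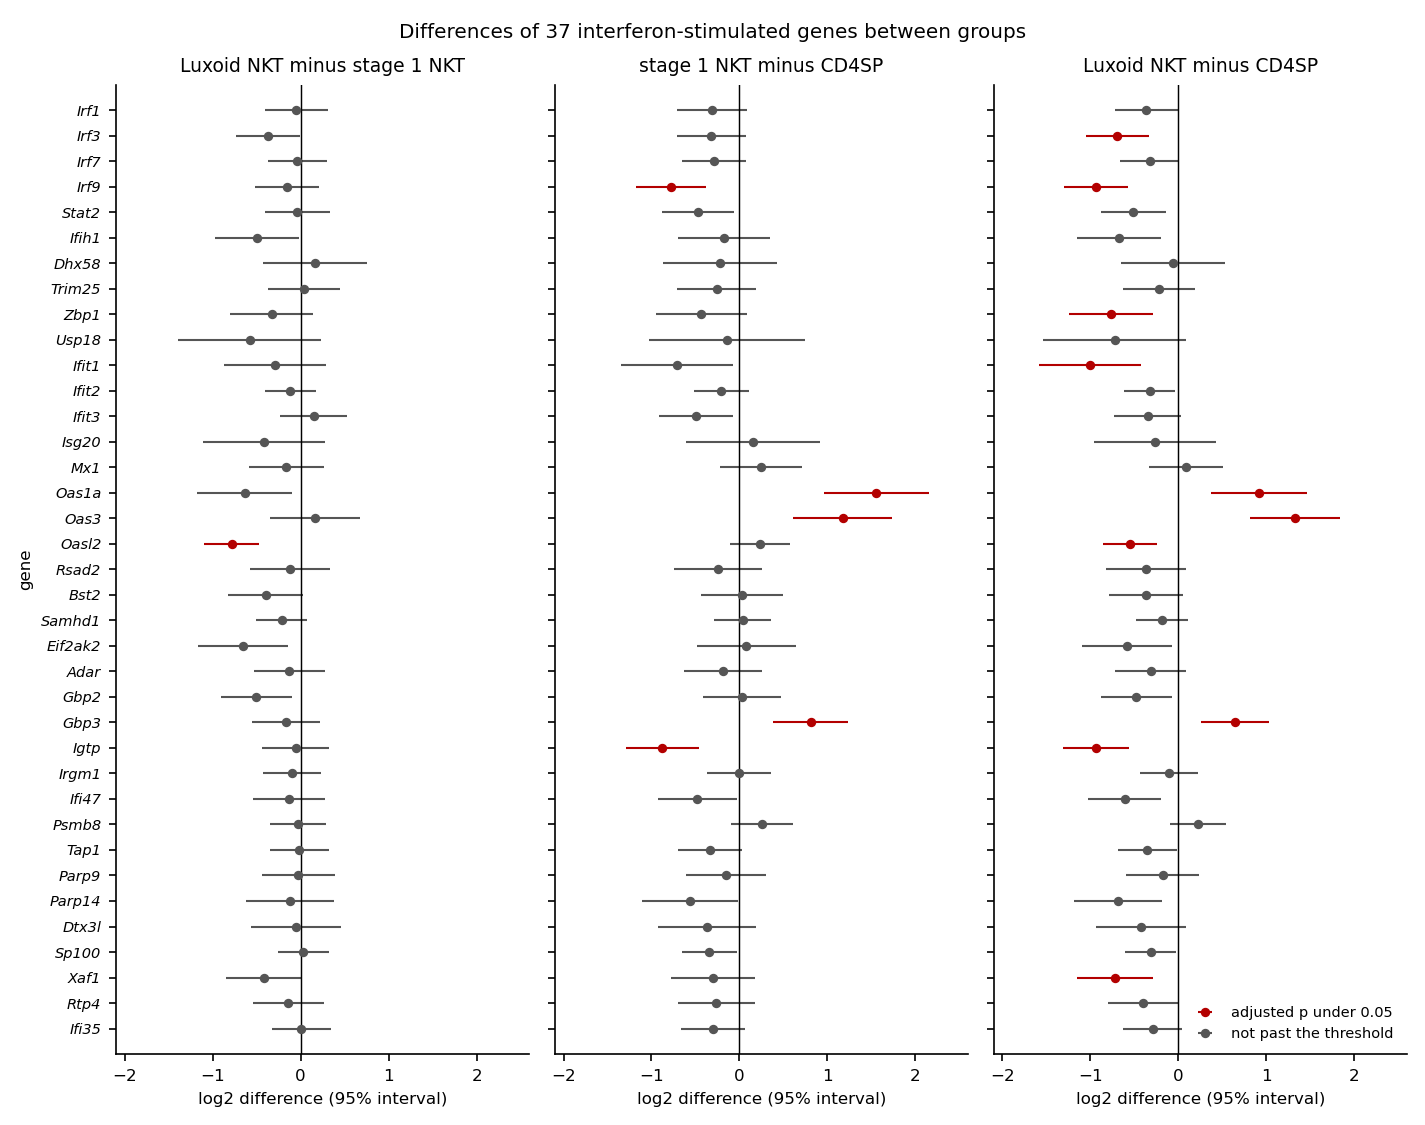
Log2 difference of each of the 37 genes in each comparison (point) with its 95% interval from limma (line), red where the adjusted p was under 0.05. In the left panel Oasl2 alone is red, while in the right panel Oas1a, Oas3 and Gbp3 lie to the right of 0 and 7 red genes lie to its left.

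**Figure D3:**
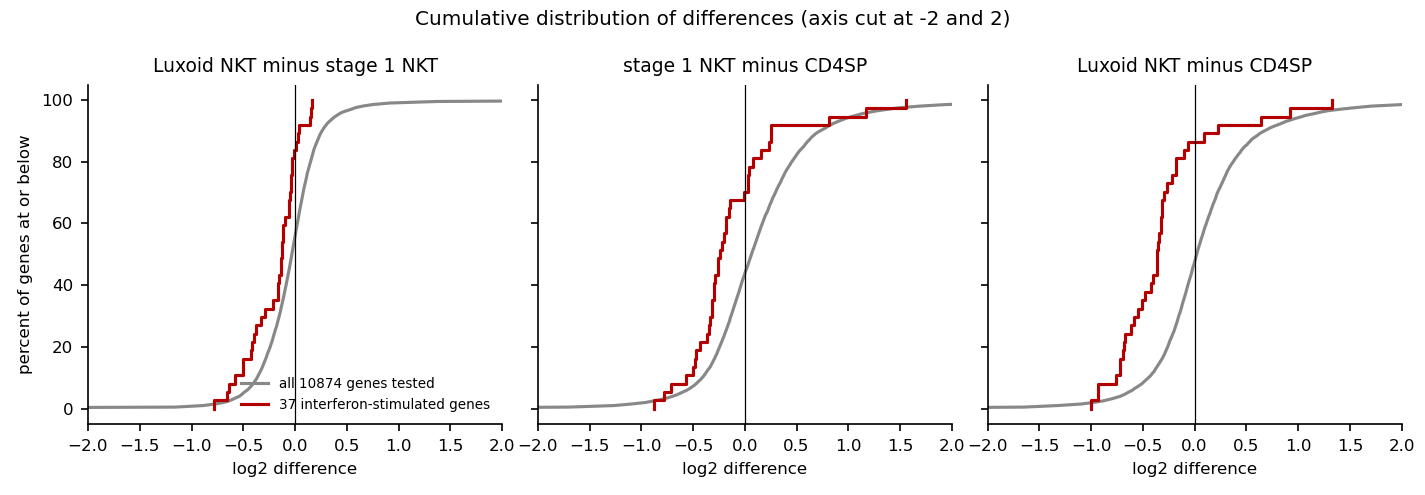
Cumulative percent of genes at or below each log2 difference, for the 37 interferon-stimulated genes (red steps) and all 10874 genes tested (grey), in the 3 comparisons, with the axis limited to -2 to 2. At 0 the red curve stands at 83.8%, 70.3% and 86.5%, and the grey curve at 56%, 43.8% and 47.6%.

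Among the transcription factors, Irf9 was lower in both NKT groups than in CD4SP. IRF9 is the DNA-binding subunit of the complex that type I interferon assembles. Its intensity was 530 and 583 in stage 1 NKT, 560, 506 and 436 in Luxoid NKT, and 872 and 1043 in CD4SP, so no NKT array reached the lower CD4SP array. The difference was -0.78 ± 0.18 (1.72-fold, adjusted p = 0.0197) for stage 1 NKT and -0.94 ± 0.16 (1.91-fold, adjusted p = 0.0049) for Luxoid NKT, while Luxoid and stage 1 NKT overlapped (-0.16 ± 0.16, adjusted p = 0.794). Irf3, the factor that nucleic acid sensors activate, read 974 and 1124 in stage 1 NKT, 872, 858 and 704 in Luxoid NKT, and 1405 and 1213 in CD4SP. No groups overlapped, and Luxoid NKT was 1.62-fold below CD4SP (-0.69 ± 0.16, adjusted p = 0.0188), with stage 1 NKT between them (-0.32 ± 0.17 from CD4SP, adjusted p = 0.263, and Luxoid NKT -0.37 ± 0.16 from it, adjusted p = 0.413). The other 3 probe sets of Irf3 also lay below 0 in the comparisons with CD4SP, at -0.28, -0.47 and -0.93 for Luxoid NKT. Between the NKT groups they differed by only -0.08, -0.01 and -0.05, so the separation of Luxoid from stage 1 NKT was that of the brightest probe set.

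Irf7, the amplifier of type I interferon production, and Irf1, which interferon gamma induces, did not pass in any comparison, nor did Stat2, the partner of IRF9. Their arrays were below CD4SP in both NKT groups without overlap, as were those of 23.6% (stage 1 NKT) and 20.6% (Luxoid NKT) of all genes. Stat2, for example, read 362 and 290 in stage 1 NKT, 309, 281 and 359 in Luxoid NKT, and 444 and 454 in CD4SP (-0.51 ± 0.16 for Luxoid NKT, adjusted p = 0.0652). When its probe sets were averaged, Stat2 did pass against CD4SP, at -0.59 for stage 1 NKT (adjusted p = 0.0127) and -0.53 for Luxoid NKT (0.013). For Luxoid NKT it also passed with the replicate number as a block (0.026) and after further quantile normalization (0.0339). All 5 factors were below 0 in all 3 comparisons. Of all genes, 56% were below 0 between the NKT groups, 43.8% for stage 1 NKT minus CD4SP and 47.6% for Luxoid NKT minus CD4SP. In that order the medians of the factors were -0.05, -0.32 and -0.51, against -0.03, 0.06 and 0.02 for all genes. Between the NKT groups the factors' median was thus near that of all genes, and the other probe set of Stat2 was above 0, at 0.17. Leaving out stage 1 NKT array 1 (adjusted p = 0.131), array 2 (0.0727) or CD4SP array 2 (0.13) ended the call of Irf9 in stage 1 NKT, and leaving out CD4SP array 2 (0.0584) ended that in Luxoid NKT. That of Irf3 ended without Luxoid array 3 (0.0513), CD4SP array 1 (0.136) or CD4SP array 2 (0.0628). In such fits a group left with 1 array is assumed to vary like the others.

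**Figure D4:**
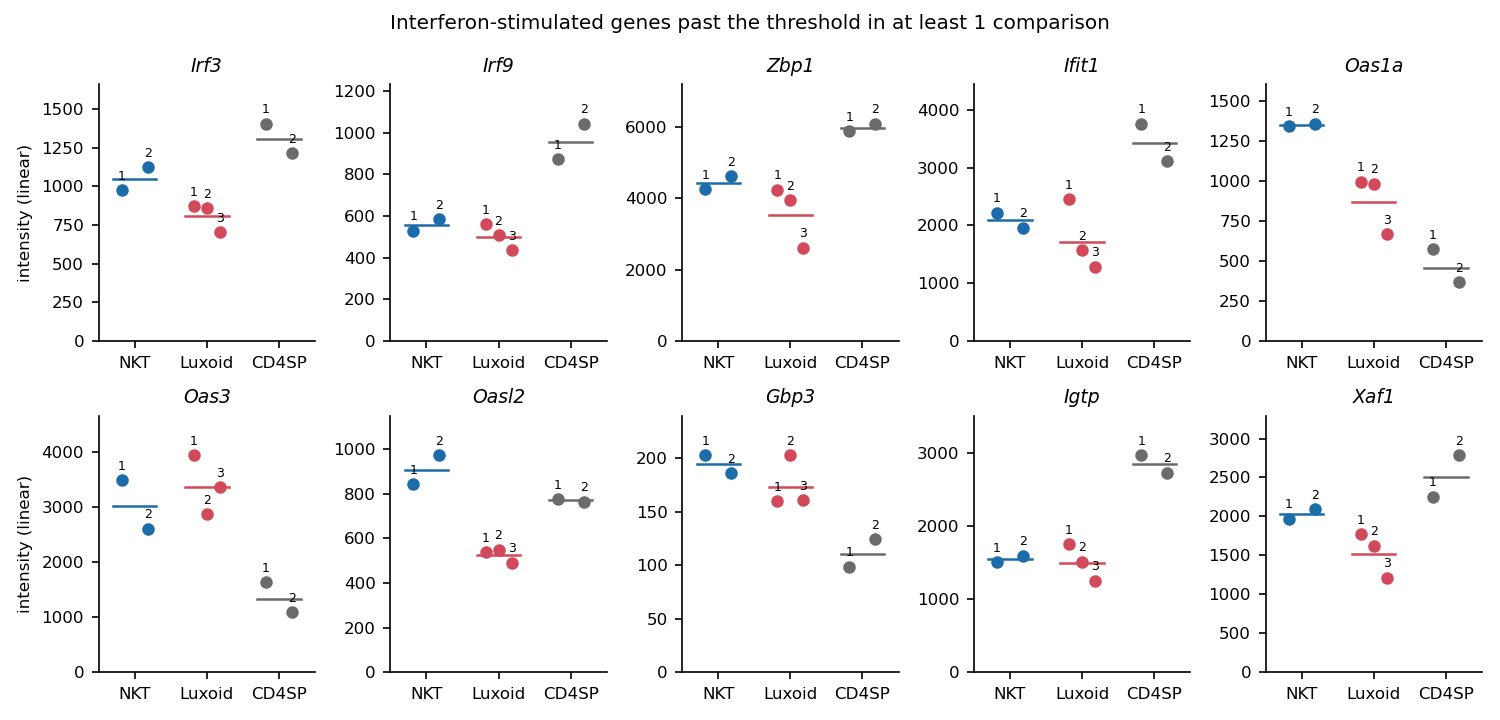
Intensity (linear scale, from 0) of the 10 members that passed in at least 1 comparison, by group; each point is 1 array with its replicate number, and the line is the geometric mean of the group. The 3 Luxoid arrays lie under all others in Irf3, Zbp1, Oasl2 and Xaf1. In Oas1a the 3 groups form separate levels, with stage 1 NKT highest and CD4SP lowest. Irf3, Zbp1 and Xaf1 also form separate levels, with CD4SP highest and Luxoid NKT lowest.

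Among the RNA sensors and the ISG15 pathway, Zbp1 alone passed, lower in Luxoid NKT than in CD4SP. ZBP1 senses Z-form nucleic acid and can start necroptosis. Zbp1 read 4251 and 4620 in stage 1 NKT, 4244, 3938 and 2616 in Luxoid NKT, and 5872 and 6093 in CD4SP. No groups overlapped in this brightest probe set, with CD4SP highest and Luxoid array 3 far below the other Luxoid arrays. In the other probe set CD4SP was again highest, but the NKT groups overlapped, with Luxoid array 1 at 1605 and stage 1 NKT array 2 at 1524. The difference of Luxoid NKT from CD4SP was -0.76 ± 0.21 (1.7-fold, adjusted p = 0.0384), and that of stage 1 NKT was -0.43 ± 0.23 (adjusted p = 0.25). It no longer passed without either stage 1 NKT array (0.0668 and 0.0676) or either CD4SP array (0.15 and 0.194), without the intensity filter (0.0521), or when Luxoid NKT and CD4SP were fitted alone (0.0679).

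Usp18, the protease that removes ISG15 and dampens the type I receptor, spread widely within Luxoid NKT. It read 472 and 403 in stage 1 NKT, 516, 251 and 192 in Luxoid NKT, and 510 and 455 in CD4SP. Luxoid array 1 was thus the highest of all arrays and the other Luxoid arrays the lowest, and the difference from CD4SP was -0.72 ± 0.35 (adjusted p = 0.215, and 0.00645 without Luxoid array 1). Ifih1, which encodes the RNA sensor MDA5, split the Luxoid arrays in a like way. It read 516 and 475 in stage 1 NKT, 467, 311 and 297 in Luxoid NKT, and 606 and 518 in CD4SP, and neither the difference of Luxoid NKT from CD4SP (-0.68 ± 0.21, adjusted p = 0.0596, and 0.00898 without Luxoid array 1) nor that from stage 1 NKT (-0.50 ± 0.21, adjusted p = 0.408) passed. Dhx58, a regulator of RNA sensing, went the other way in 1 array of its brightest probe set, at 599 in Luxoid array 2 and 322 to 429 in the others. Its other probe set at the filter was lowest in that array, at 154, so the high reading was that of 1 probe set. Trim25, the ubiquitin ligase of the RIG-I pathway, read 5286 to 8135 with every pair of groups overlapping.

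Of the 13 antiviral effectors tested 2 were higher in both NKT groups than in CD4SP, where 10.8% (stage 1 NKT) and 11.3% (Luxoid NKT) of all genes were, and 2 were lower in Luxoid NKT than in CD4SP, where 5.51% of all genes were. The members that were higher both encode 2′-5′ oligoadenylate synthetases, which make the messenger that activates RNase L. Oas1a read 1339 and 1357 in stage 1 NKT, 993, 982 and 666 in Luxoid NKT, and 572 and 367 in CD4SP. The groups formed 3 separate levels, with stage 1 NKT highest. Stage 1 NKT was 2.94-fold above CD4SP (1.56 ± 0.26, adjusted p = 0.00545), and Luxoid NKT was 1.89-fold above it (0.92 ± 0.24, adjusted p = 0.0315), while Luxoid NKT minus stage 1 NKT did not pass (-0.64 ± 0.24, adjusted p = 0.344). The difference of stage 1 NKT from CD4SP was the only member call that passed in all 18 alternatives. That of Luxoid NKT ended without either stage 1 NKT array (0.0583 and 0.0591), Luxoid array 1 (0.0771), Luxoid array 2 (0.0624) or CD4SP array 2 (0.245), and with those groups fitted alone (0.0593).

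Oas3 read 3483 and 2604 in stage 1 NKT, 3938, 2871 and 3360 in Luxoid NKT, and 1636 and 1092 in CD4SP. Both NKT groups lay above CD4SP and overlapped each other. Stage 1 NKT was 2.25-fold higher than CD4SP (1.17 ± 0.25, adjusted p = 0.0148), Luxoid NKT was 2.52-fold higher (1.33 ± 0.22, adjusted p = 0.00467), and Luxoid NKT minus stage 1 NKT was 0.16 ± 0.22 (95% interval -0.35 to 0.67). The first no longer passed without stage 1 NKT array 1 (0.121) or CD4SP array 2 (0.108), and the second without CD4SP array 2 (0.0528). Oas1a and Oas3 lie on chromosome 5 within 1 Mb of each other, and Luxoid NKT minus stage 1 NKT had opposite signs in them.

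Oasl2 took another course. It read 842 and 972 in stage 1 NKT, 538, 548 and 490 in Luxoid NKT, and 774 and 764 in CD4SP. All Luxoid arrays were below every other array, and Luxoid array 3 was close to the other Luxoid arrays. Luxoid NKT was 1.72-fold below stage 1 NKT (-0.78 ± 0.14, adjusted p = 0.0278) and 1.47-fold below CD4SP (-0.55 ± 0.14, adjusted p = 0.0262), while stage 1 NKT minus CD4SP did not pass (0.23 ± 0.15, adjusted p = 0.34). The difference from stage 1 NKT passed in 10 of 18 alternatives, and in 1 of the 7 fits that left out an array, namely without Luxoid array 2 (0.0476). Its adjusted p was 0.123 and 0.33 without stage 1 NKT array 1 and 2, 0.0583 and 0.0946 without Luxoid array 1 and 3, 0.0672 and 0.0672 without CD4SP array 1 and 2, and 0.0682 with the NKT groups alone. The difference from CD4SP ended without Luxoid array 1 (0.0501) or 3 (0.0706) or either CD4SP array (0.123 and 0.126).

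Ifit1, whose product binds RNA that lacks the cap methylation of the host, was lowest in Luxoid NKT. It read 2224 and 1963 in stage 1 NKT, 2456, 1573 and 1287 in Luxoid NKT, and 3765 and 3118 in CD4SP. The Luxoid arrays spread across both sides of stage 1 NKT, and all were below CD4SP. Luxoid NKT was 2.01-fold below CD4SP (-1.005 ± 0.25, adjusted p = 0.0293), stage 1 NKT minus CD4SP was -0.71 ± 0.28 (adjusted p = 0.13, and 0.0312 with those groups alone), and Luxoid NKT minus stage 1 NKT was -0.29 ± 0.25 (adjusted p = 0.751). The call ended without any 1 array other than Luxoid array 1, with adjusted p from 0.0535 without stage 1 NKT array 1 through 0.0541 (stage 1 NKT array 2), 0.0552 (Luxoid array 2), 0.0682 (Luxoid array 3) and 0.102 (CD4SP array 2) to 0.181 (CD4SP array 1). Its neighbours on chromosome 19, Ifit2 and Ifit3, were also highest in CD4SP without overlap, and did not pass. Ifit3 read 1323 and 1294 in stage 1 NKT, 1613, 1529 and 1235 in Luxoid NKT, and 2059 and 1654 in CD4SP.

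Eif2ak2, which encodes the RNA-activated kinase PKR, read 1578 and 1211 in stage 1 NKT, 1159, 835 and 692 in Luxoid NKT, and 1351 and 1270 in CD4SP. All Luxoid arrays lay below the rest in this brightest probe set, yet neither difference passed (-0.66 ± 0.22 from stage 1 NKT, adjusted p = 0.288, and -0.58 ± 0.22 from CD4SP, adjusted p = 0.122). Another probe set of Eif2ak2 overlapped between the groups (-0.17 from stage 1 NKT and -0.02 from CD4SP). The remaining one also had all Luxoid arrays lowest (-0.44 and -0.17). Isg20, an exonuclease gene, read 1109 to 1280 outside Luxoid NKT and 572 in Luxoid array 3, with the other Luxoid arrays at 1194 and 1233. Samhd1, whose product depletes nucleotides, read 3867 to 4737 over all arrays, and Bst2, which encodes the virus-tethering protein tetherin, 379 to 655. Mx1, a dynamin-like GTPase gene, read 114 to 170, Rsad2, which encodes viperin, 631 to 1126, and Adar, the RNA-editing adenosine deaminase gene, 512 to 807. Of these, Isg20, Samhd1 and Bst2 had all Luxoid arrays below both stage 1 NKT arrays without passing. For Samhd1 this held in the brightest probe set, and its other probe sets at the filter overlapped between the NKT groups.

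Of the 5 interferon-inducible GTPase genes, 1 was higher and 1 lower in each NKT group than in CD4SP, where 10.8% of all genes were higher and 4.08% lower in stage 1 NKT, and 11.3% and 5.51% in Luxoid NKT. Igtp, which encodes the immunity-related GTPase Irgm3, read 1508 and 1597 in stage 1 NKT, 1753, 1512 and 1253 in Luxoid NKT, and 2972 and 2731 in CD4SP. The NKT groups overlapped and both lay well below CD4SP, by 1.84-fold for stage 1 NKT (-0.88 ± 0.18, adjusted p = 0.0138) and 1.91-fold for Luxoid NKT (-0.93 ± 0.17, adjusted p = 0.00595). Gbp3, a guanylate-binding protein gene, read 203 and 186 in stage 1 NKT, 160, 203 and 161 in Luxoid NKT, and 98.8 and 124 in CD4SP. Every NKT array was above CD4SP, by 1.75-fold in stage 1 NKT (0.81 ± 0.19, adjusted p = 0.0212) and 1.56-fold in Luxoid NKT (0.64 ± 0.17, adjusted p = 0.0334).

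Gbp2, the neighbour of Gbp3 on chromosome 3, had another pattern, at 975 and 818 in stage 1 NKT, 689, 645 and 564 in Luxoid NKT, and 1017 and 756 in CD4SP. Its Luxoid arrays lay below all others without passing (-0.50 ± 0.18 from stage 1 NKT, adjusted p = 0.314). Ifi47, a GTPase gene on chromosome 11, read 2358 and 2131, then 2353, 2222 and 1640, then 3314 and 2946 in the same order of groups, and its Luxoid difference from CD4SP lay just outside the threshold (-0.61 ± 0.18, adjusted p = 0.0519). That difference passed under several alternatives, with adjusted p from 0.0281 (limma trend) to 0.0441 (without Luxoid array 1). Irgm1, within 1 Mb of Ifi47, read 320 to 393 with all groups overlapping. In stage 1 NKT the call of Igtp ended without stage 1 NKT array 1 (0.0989) or 2 (0.0679) or CD4SP array 1 (0.0877) or 2 (0.0642), and that of Gbp3 without stage 1 NKT array 1 (0.135) or 2 (0.0803) or CD4SP array 1 (0.132). In Luxoid NKT the call of Igtp ended without CD4SP array 1 (0.0576). That of Gbp3 ended without any 1 array other than Luxoid array 1, namely stage 1 NKT array 1 (0.0577) or 2 (0.0583), Luxoid array 2 (0.0652) or 3 (0.0545), or CD4SP array 1 (0.215) or 2 (0.0621), and with the groups alone (0.0585).

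Neither antigen processing gene passed. Psmb8, an immunoproteasome subunit, read 6235 and 5574 in stage 1 NKT, 6227, 5781 and 5345 in Luxoid NKT, and 5249 and 4650 in CD4SP, and so was above CD4SP in every NKT array by a small margin (0.26 ± 0.15 and 0.22 ± 0.14). Tap1, the peptide transporter encoded within 1 Mb of Psmb8 on chromosome 17, was the reverse, at 1140 to 1389 in the NKT arrays and 1553 and 1751 in CD4SP (-0.34 ± 0.16 and -0.35 ± 0.15).

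Among the PARP genes and other members Xaf1 alone passed. XAF1 is an interferon-induced promoter of apoptosis. Xaf1 read 1972 and 2093 in stage 1 NKT, 1772, 1624 and 1214 in Luxoid NKT, and 2252 and 2787 in CD4SP. No groups overlapped, and Luxoid NKT was 1.65-fold below CD4SP (-0.72 ± 0.19, adjusted p = 0.0331), with stage 1 NKT minus CD4SP at -0.30 ± 0.21 (adjusted p = 0.376). The call was lost on leaving out stage 1 NKT array 1 (0.0592), stage 1 NKT array 2 (0.0599), Luxoid array 3 (0.0687), or CD4SP array 1 (0.0725) or 2 (0.233), and with the groups alone (0.0602). Parp14, Parp9 and Dtx3l lie together on chromosome 16, and PARP9 and DTX3L act as a ubiquitin ligase pair. Parp14 read 1113 and 935 in stage 1 NKT, 1129, 867 and 846 in Luxoid NKT, and 1870 and 1217 in CD4SP (-0.68 ± 0.22 for Luxoid NKT, adjusted p = 0.0659), while Parp9 and Dtx3l overlapped between Luxoid NKT and CD4SP. The Luxoid difference of Parp14 passed under several alternatives, such as the Y-linked covariate (0.0123) and the mean of probe sets (0.0135). Sp100, a nuclear body protein gene, read 2445 to 2567 in the NKT arrays and 3018 and 3319 in CD4SP (-0.34 ± 0.14 and -0.31 ± 0.13, not past the threshold). Rtp4, whose product helps receptors reach the cell surface, and Ifi35, a leucine zipper protein gene, were likewise below CD4SP in every NKT array and did not pass.

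Of the 37 members 16 had several probe sets at the filter. In the comparison of Luxoid with stage 1 NKT these pointed in opposite directions for 8 members (Adar, Dhx58, Dtx3l, Parp14, Rsad2, Rtp4, Stat2 and Tap1), and in each comparison with CD4SP for Samhd1 alone. Oas1a, Oas3, Oasl2, Ifit1, Igtp, Irf9 and Gbp3 rest on 1 probe set each. Those used for Trim25 and Ifi35 are of the design that may match several related transcripts.

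Upstream of these genes stand the interferon receptors. Of 26 ligand, receptor and signalling genes 20 were tested, and 1 was higher in Luxoid than in stage 1 NKT, 1 was higher and 4 were lower in stage 1 NKT than in CD4SP, and 2 were higher and 3 lower in Luxoid NKT than in CD4SP. Among all genes these shares were 0.901%, 10.8% and 4.08%, and 11.3% and 5.51%, so the higher counts were near or under the background in the comparisons with CD4SP. Ifnar1, a chain of the type I interferon receptor, read 606 and 597 in stage 1 NKT, 633, 587 and 530 in Luxoid NKT, and 1013 and 983 in CD4SP. The NKT groups overlapped, at 1.66-fold and 1.72-fold below CD4SP (-0.73 ± 0.15, adjusted p = 0.0128, and -0.78 ± 0.13, adjusted p = 0.00521). The other chain, Ifnar2, read 1408 to 1739 with no difference past the threshold. The stage 1 NKT call of Ifnar1 ended without either stage 1 NKT array (0.0763 and 0.0732) or either CD4SP array (0.0719 and 0.0659), and that of Luxoid NKT passed in all 18 alternatives.

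The chains of the interferon gamma receptor differed in pattern. Ifngr1, which binds the ligand, read 163 and 190 in stage 1 NKT, 562, 606 and 540 in Luxoid NKT, and 303 and 388 in CD4SP. Luxoid NKT was thus highest, at 3.23-fold above stage 1 NKT (1.69 ± 0.16, adjusted p = 0.00126) and 1.66-fold above CD4SP (0.73 ± 0.16, adjusted p = 0.015), and stage 1 NKT was 1.95-fold below CD4SP (-0.96 ± 0.17, adjusted p = 0.00758). Ifngr2, which transmits the signal, read 511 and 570 in stage 1 NKT, 365, 385 and 344 in Luxoid NKT, and 1281 and 1385 in CD4SP. Here CD4SP was highest, at 2.47-fold above stage 1 NKT (-1.30 ± 0.15, adjusted p = 0.000716) and 3.66-fold above Luxoid NKT (-1.87 ± 0.13, adjusted p = 4.93e-05), and Luxoid NKT minus stage 1 NKT was -0.57 ± 0.13 (adjusted p = 0.101). The Ifngr1 call between the NKT groups and both Ifngr2 calls passed in all 18 alternatives. Those of Ifngr1 against CD4SP ended without stage 1 NKT array 1 (0.0713) or CD4SP array 2 (0.0627) for stage 1 NKT, and without CD4SP array 1 (0.122) for Luxoid NKT.

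**Figure D5:**
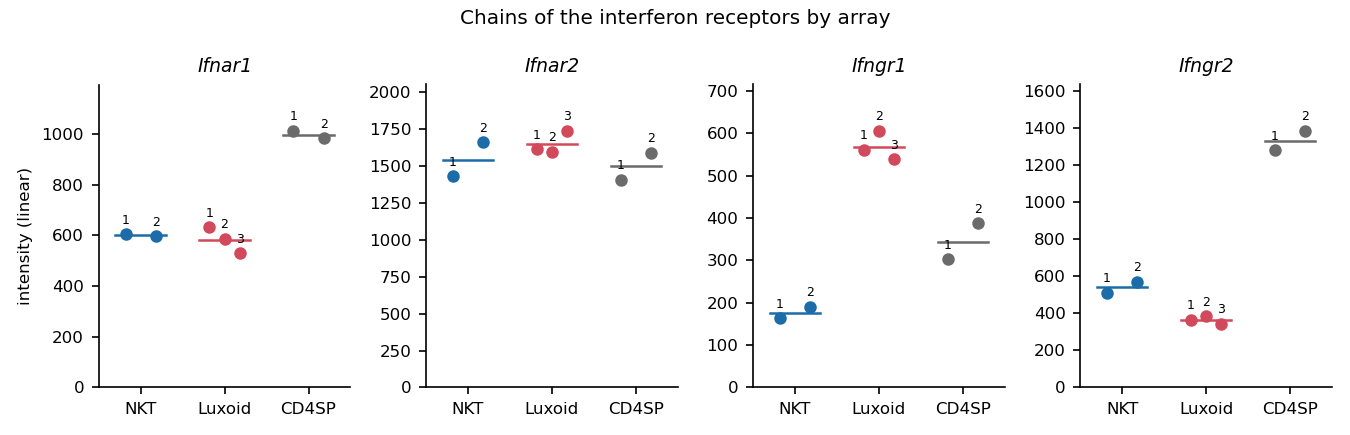
Intensity (linear scale, from 0) of the 4 interferon receptor chains by group; each point is 1 array with its replicate number, and the line is the geometric mean of the group. Ifngr1 is highest in Luxoid NKT (540 to 606), whereas Ifngr2 and Ifnar1 are highest in CD4SP and Ifnar2 lies between 1408 and 1739 in every array.

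The kinases that carry the signal, Jak1, Jak2 and Tyk2, did not pass in any comparison, with differences from -0.18 to 0.18 on the log2 scale. The ligand genes Ifng, at 28.2 to 44.4, and Ifnb1, at 20.2 to 31.0, and the feedback inhibitor Socs1, at 41.2 to 64.4, were under the filter in every array. Socs3, a feedback inhibitor that interferon and cytokines induce, read 72.1 and 84.3 in stage 1 NKT, 133, 59.2 and 101 in Luxoid NKT, and 202 and 290 in CD4SP. It was lower in both NKT groups (-1.63 ± 0.35, adjusted p = 0.0155, and -1.39 ± 0.32, adjusted p = 0.0187), on a probe set of the design whose probes can match other transcripts. Irf4, an interferon regulatory factor that antigen receptor signals induce, was higher in both, at 1438 and 1179, then 1533, 1317 and 1748, against 789 and 720 in CD4SP (0.79 ± 0.18, adjusted p = 0.0224, and 1.01 ± 0.17, adjusted p = 0.0041). The Luxoid call of Irf4 passed in all 18 alternatives. The stage 1 NKT call of Irf4 ended without stage 1 NKT array 1 (0.158) or 2 (0.0545) or CD4SP array 1 (0.0789) or 2 (0.13). Those of Socs3 ended without stage 1 NKT array 1 (0.114) or 2 (0.0692) or CD4SP array 2 (0.119) in stage 1 NKT, and without CD4SP array 1 (0.0536) or 2 (0.167) in Luxoid NKT.

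Of 24 nucleic acid sensing genes 17 were tested, and 3 were higher and 2 lower in stage 1 NKT than in CD4SP, 2 higher and 3 lower in Luxoid NKT than in CD4SP, and none passed between the NKT groups. Among all genes 10.8% and 4.08%, 11.3% and 5.51%, and 1.55% passed in these comparisons. Cgas, the cytosolic DNA sensor, read 670 and 727 in stage 1 NKT, 637, 642 and 462 in Luxoid NKT, and 223 and 187 in CD4SP. It was 3.41-fold and 2.81-fold higher in the NKT groups (1.77 ± 0.20, adjusted p = 0.000701, and 1.49 ± 0.18, adjusted p = 0.00087), in all 18 alternatives. Tlr7, the endosomal receptor of single-stranded RNA, ran the other way, at 94.6 and 118 in stage 1 NKT, 75.2, 56.8 and 67.5 in Luxoid NKT, and 225 and 219 in CD4SP. It was 2.1-fold lower in stage 1 NKT (-1.07 ± 0.18, adjusted p = 0.00616, and 0.0598 without stage 1 NKT array 1) and at least 2.7-fold lower in Luxoid NKT, whose arrays were all under the filter (adjusted p = 0.000241). The bound sets the CD4SP mean against the filter value. Aim2, another cytosolic DNA sensor, was higher in both NKT groups (0.69 ± 0.17, adjusted p = 0.0281, and 0.81 ± 0.15, adjusted p = 0.00806). The kinase gene Ikbke was lower in both (-0.70 ± 0.16, adjusted p = 0.0215, and -0.60 ± 0.15, adjusted p = 0.0246), and Tank, an adaptor of that kinase, was lower in Luxoid NKT (-1.08 ± 0.25, adjusted p = 0.0206), with stage 1 NKT at -0.71 ± 0.28 from CD4SP (adjusted p = 0.126).

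The calls of Aim2 and Ikbke in stage 1 NKT ended without stage 1 NKT array 1 (0.113 for Aim2, 0.0836 for Ikbke) or 2 (0.137, 0.121) or CD4SP array 1 (0.156, 0.117) or 2 (0.0642, 0.079). In Luxoid NKT that of Aim2 ended without CD4SP array 1 (0.0775), that of Ikbke without Luxoid array 3 (0.0635) or CD4SP array 1 (0.145) or 2 (0.093), and that of Tank without Luxoid array 3 (0.0646) or CD4SP array 1 (0.101) or 2 (0.136).

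Of 92 further interferon-stimulated genes 66 were tested. Between the NKT groups 1 was higher and 2 lower, against CD4SP 5 were higher and 6 lower in stage 1 NKT, and 3 were higher and 9 lower in Luxoid NKT. Among all genes 0.901% and 0.653%, 10.8% and 4.08%, and 11.3% and 5.51% were higher and lower, so fewer of these genes were higher than CD4SP, by share, than of all genes. Their medians were -0.05, -0.11 and -0.14, nearer to those of all genes than the members' medians were. Iigp1, an immunity-related GTPase gene that interferon gamma induces, separated all 3 groups. It read 284 and 304 in stage 1 NKT, 142, 148 and 103 in Luxoid NKT, and 832 and 606 in CD4SP. Luxoid NKT was 2.27-fold below stage 1 NKT (-1.19 ± 0.20, adjusted p = 0.0278) and 5.5-fold below CD4SP (-2.46 ± 0.20, adjusted p = 0.000107), and stage 1 NKT was 2.42-fold below CD4SP (-1.27 ± 0.22, adjusted p = 0.00691). The difference of Luxoid NKT from CD4SP passed in all 18 alternatives. That between the NKT groups ended without Luxoid array 3 (0.0655) and without stage 1 NKT array 1 (0.194) or 2 (0.317), and that of stage 1 NKT from CD4SP without stage 1 NKT array 1 (0.0608) or CD4SP array 1 (0.057).

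Ifi30, which encodes a lysosomal thiol reductase of antigen processing, read 1424 and 1329 in stage 1 NKT, 822, 608 and 564 in Luxoid NKT, and 619 and 615 in CD4SP. Stage 1 NKT exceeded CD4SP 2.23-fold (1.16 ± 0.19, adjusted p = 0.00566), and Luxoid NKT was 2.1-fold below stage 1 NKT (-1.07 ± 0.18, adjusted p = 0.0231) and overlapped CD4SP. Cd69, the activation marker that retains thymocytes and is also induced by type I interferon, read 283 and 277 in stage 1 NKT, 1055, 1040 and 1429 in Luxoid NKT, and 882 and 1066 in CD4SP. Stage 1 NKT was thus the low group, 4.15-fold below Luxoid NKT (2.05 ± 0.18, adjusted p = 0.000955) and 3.46-fold below CD4SP (-1.79 ± 0.19, adjusted p = 0.000579), in all 18 alternatives. Tnfsf10, the death ligand TRAIL, stood 2.91-fold above CD4SP in Luxoid NKT (1.54 ± 0.18, adjusted p = 0.000693), also in all 18, and 1.7-fold above it in stage 1 NKT (0.77 ± 0.20, adjusted p = 0.0336). Slfn1 (-0.88 ± 0.17, adjusted p = 0.00902) and Gbp6 (-0.85 ± 0.20, adjusted p = 0.0206) were lower in Luxoid NKT than in CD4SP, and in stage 1 NKT the values were close to these (-0.85 ± 0.19, adjusted p = 0.0187, for Slfn1 and -0.76 ± 0.22, adjusted p = 0.0506, for Gbp6). Casp1, the inflammatory caspase gene, read 234 and 127 in stage 1 NKT and was under the filter in both CD4SP arrays, at least 2.1-fold lower there (adjusted p = 0.0108).

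Of these, the difference of Ifi30 between the NKT groups ended without stage 1 NKT array 1 (0.218) or 2 (0.215), Luxoid array 2 (0.0522) or 3 (0.074), or CD4SP array 1 (0.0625) or 2 (0.0628), and with the groups alone (0.0639). That of Ifi30 from CD4SP ended without stage 1 NKT array 1 (0.0536), and that of Casp1 without stage 1 NKT array 1 (0.0807) or CD4SP array 1 (0.0833). The stage 1 NKT calls of Tnfsf10 and Slfn1 ended without stage 1 NKT array 1 (0.212 for Tnfsf10, 0.114 for Slfn1) or 2 (0.0628, 0.0865) or CD4SP array 1 (0.152, 0.117) or 2 (0.12, 0.0604), and that of Slfn1 when its probe sets were averaged (-0.35, adjusted p = 0.127). In Luxoid NKT the call of Slfn1 ended without CD4SP array 1 (0.0832) and when its probe sets were averaged (-0.36, adjusted p = 0.0821), and that of Gbp6 without Luxoid array 3 (0.0551) or CD4SP array 1 (0.129) or 2 (0.0979).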

How the data were processed

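Per the submitters' processing notes, the authors made the deposited values with RMA in Affymetrix Expression Console, versions not given in the sources used here. The deposited intensity values are linear, from 3.08 to 20880, so log2 was taken first. RMA corrects background, sets every array to 1 distribution by quantiles and summarises probes, which compresses differences of dim probe sets. Names came from GEO's platform annotation: of 45037 probe sets 34945 had 1 symbol, 932 several and 9160 none listed, and 34741 matched RefSeq of GRCm38.p6, which changed 0 symbols. Genes whose brightest probe set reached 82, about the median of all values, in 2 or more arrays were tested in limma 3.58.1 (R 4.3.3) as group means over all 7 arrays (4 residual and 4.49 prior degrees of freedom), with Benjamini-Hochberg adjustment, which was tested on simulated data. The labels call the samples biological replicates of pooled mice. The text names all members, and from each pathway list the 4 genes of largest difference that passed and the receptor chains and kinases. The members and lists were chosen with earlier results of these data known. Alternatives were a replicate block, no filter and one of 200, mean or all probe sets, further quantile normalization, median centring, limma trend, array weights, a Y-linked covariate, the 2 groups alone and leaving out each array. The counts below 0, without overlap and by order of groups were repeated without Luxoid array 3 after seeing the data.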

Additional observations from a re-analysis of the deposited data

How the results depend on the processing

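None of the results repeated under the alternatives changed sign, and the members' median stayed below 0 in all 3 comparisons. Left out 1 at a time, the arrays gave medians of -0.21 to -0.06 for Luxoid against stage 1 NKT, -0.25 to -0.21 for stage 1 NKT against CD4SP and -0.47 to -0.28 for Luxoid NKT against CD4SP. Members that passed numbered 0 higher and 0 to 1 lower, 1 to 3 higher and 0 to 3 lower, and 0 to 2 higher and 1 to 11 lower in these fits, and pathway genes 2 higher and 0 to 3 lower, 1 to 10 higher and 3 to 15 lower, and 3 to 7 higher and 5 to 16 lower. Without Luxoid array 3, 22 and 30 members were below 0, 12 and 23 did not overlap and were lower, and 3 and 6 were higher, against stage 1 NKT and CD4SP, and the order Luxoid NKT, stage 1 NKT, CD4SP held for 13 members. The replicate numbers are shared by 2 arrays of each group and only number them, although same-numbered arrays deviated together (r = 0.334 to 0.491). The arrays numbered 1 were also those with low Kdm5d. With the replicate number as a block, Oasl2 did not pass between the NKT groups (adjusted p = 0.0530), so 0 members were lower, 1 pathway gene was lower, Iigp1 being lost (0.0514), 6 members and 20 pathway genes were lower in stage 1 NKT than in CD4SP, and 11 members were lower in Luxoid NKT than in CD4SP. With the groups of a comparison fitted alone, 0 members and 1 pathway gene were lower between the NKT groups, and 1 member was higher and 4 lower in Luxoid NKT than in CD4SP. With the mean of probe sets, 4 pathway genes were higher between the NKT groups, and 5 and 12 members were lower in stage 1 and Luxoid NKT than in CD4SP. Lower members in Luxoid NKT than in CD4SP numbered 12 after further quantile normalization and 11 with the Y-linked covariate, which used 3 genes. Over all genes, that comparison had 1831 passing in the main fit, 2299 with the block and 1463 with the groups alone. It had 1917 of 9833 with the mean of probe sets, 1861 after further quantile normalization and 2288 with the Y-linked covariate. Of these 67.3%, 65.7%, 69.3%, 64.4%, 61.5% and 65.1% were higher in Luxoid NKT. Between the NKT groups 126 passed with the groups alone and 241 with the mean of probe sets, which gave 1778 for stage 1 NKT against CD4SP. Some members outside the threshold passed against CD4SP, as lower, under at least 1 alternative. These were Stat2, Ifit1, Ifit3, Ifi47, Parp14 and Sp100 in stage 1 NKT, and Stat2, Ifih1, Usp18, Eif2ak2, Gbp2, Ifi47 and Parp14 in Luxoid NKT. Over all genes, 169, 1621 and 1831 passed in the 3 comparisons, and 170, 2616 and 2299 with the block. With 1 array left out, they numbered 49 to 176, 635 to 1848 and 839 to 1737. The cause of these changes was not tested.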
